A study of Mus musculus with 17 samples.

Results

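Transcripts of 9 receptor genes for glutamate, GABA and glycine were measured by bulk RNA-seq in mouse astrocytes in culture. The genes were chosen by symbol from the table of counts, with earlier results of these data known. They are the AMPA receptor subunits *Gria1*, *Gria2*, *Gria3* and *Gria4*, the metabotropic glutamate receptors *Grm3* and *Grm5*, the GABAB receptor subunits *Gabbr1* and *Gabbr2*, and the glycine receptor beta subunit *Glrb*. Each stood on a single row, and together they are 9 of the 56691 gene rows of the table.

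The astrocytes came from C57BL/6 mice on postnatal day 2, from the brain without meninges, olfactory bulbs or cerebellum. They were purified by immunopanning, in which antibodies to CD45 and to the O4 antigen served to lower the number of microglia, macrophages and oligodendrocyte precursors and an antibody to HepaCAM then held the astrocytes. All cultures were kept without serum and with a heparin-binding EGF-like growth factor, so no group lacked growth factor. In the first experiment, SAG, a small molecule that activates Smoothened and with it the sonic hedgehog (SHH) pathway, was given at 500 ng/ml from day 3 in vitro for 3 d (n = 3), and controls received its solvent DMSO (n = 3). In the second, the growth factor FGF2 (n = 4) or FGF10 (n = 3) was given at 50 ng/ml from day 2 in vitro for 7 d, and controls received PBS (n = 4). No gene was deleted and no transgene was used in these groups. The methods count 3 FGF2 replicates and the labels 4, none of which was left out here. The methods call the replicates biological but name no litter or animal for them, so p-values measure the spread between cultures only.

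Total counts ran from 17481727 to 68342287 over the 17 libraries, with a median of 37173676. Under counting noise alone, a gene without a read could still be present at up to 3 counts. That is 0.0439 to 0.172 CPM by library. Libraries of a group differed by more than counting noise, so a count of 0 does not bound the level this closely. CPM is the count per 1e6 of the TMM-normalized total of its library. Of 12 astrocyte markers, all 12 had counts in every group, with a summed level of 3650 to 5890 CPM per library. Microglia and macrophage markers summed to at most 6.34 CPM, with *Aif1* and *Csf1r* at 0 in every library. Markers of other cells were present. Of 12 neuronal markers, 9 or 10 had counts in each group, with sums of 60.8 to 304 CPM per library, and *Slc17a6* and *Slc17a7* were at 0 in every library. Oligodendrocyte lineage markers summed to 364 to 1050 CPM, ependymal markers to 82.9 to 617 CPM and endothelial and mural markers to 0 to 64.7 CPM. As readouts of the pathway that SAG activates, 3 genes were checked. *Ptch1*, the SHH receptor and a target of the pathway, rose, at 462, 482 and 461 CPM with SAG and at 81.9, 103 and 67.2 CPM with DMSO in replicates 1, 2 and 3 (log2(fold-change) 2.50, edgeR adjusted p = 0.00173). *Gli1* and *Hhip*, further targets, had no counts in the 3 DMSO libraries and were at 6.67 to 38.1 CPM and 10.3 to 17.1 CPM with SAG.

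AMPA receptors are tetramers of GRIA subunits and carry most fast excitatory transmission, and GRIA2, when edited, makes the channel nearly impermeable to calcium. GRM5 couples to Gq and calcium release and is the main group I metabotropic receptor of young astrocytes, whereas GRM3 couples to Gi and is known from more mature astrocytes. The GABAB receptor works only as a heterodimer, in which GABBR1 binds GABA and GABBR2 brings the complex to the surface and couples it to G proteins. GLRB joins alpha subunits in the glycine-gated chloride channel and ties it to the scaffold protein gephyrin.

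The libraries were made from 3ʹ ends, so length alone should not raise the count of a gene. Other differences between genes in how their 3ʹ ends are counted were not tested. The annotation and the use of molecular identifiers are not given. The order of genes below is therefore one of CPM values and need not be that of transcript numbers. Over all 17 libraries the order of median levels was *Gria2* (161 CPM), *Gabbr1* (101 CPM), *Grm5* (67.8 CPM), *Gabbr2* (57.1 CPM), *Gria4* (16.1 CPM), *Grm3* (12.3 CPM), *Gria3* (6.06 CPM), *Gria1* (4.37 CPM) and *Glrb* (3.01 CPM). The ranges of neighbours in this order overlapped over the 17 libraries. The first 4 of these genes had counts in every library. *Glrb* had no count in 3 libraries and at most 3 counts in 5, *Gria1*, *Gria3* and *Grm3* had no count in 2 libraries each, and *Gria4* had none in 1. *Gabbr1* varied least, with a coefficient of variation of 27.3% over the 17 libraries, and *Gria1* most, with 179%. The DMSO cultures were the controls of the first experiment. In them the ranges of *Gria2* (168 ± 44.2 CPM, SD, n = 3) and *Gabbr1* (110 ± 25.3 CPM, SD, n = 3) overlapped. Within every DMSO library *Gria2* was the higher of these genes, and both lay above *Gabbr2* (45.0 ± 12.0 CPM, SD, n = 3). *Grm5* (26.6 ± 5.04 CPM, SD, n = 3) lay below *Gabbr2* in every DMSO library, and the other 5 genes had means between 1.04 and 14.7 CPM.

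**Figure D1:**
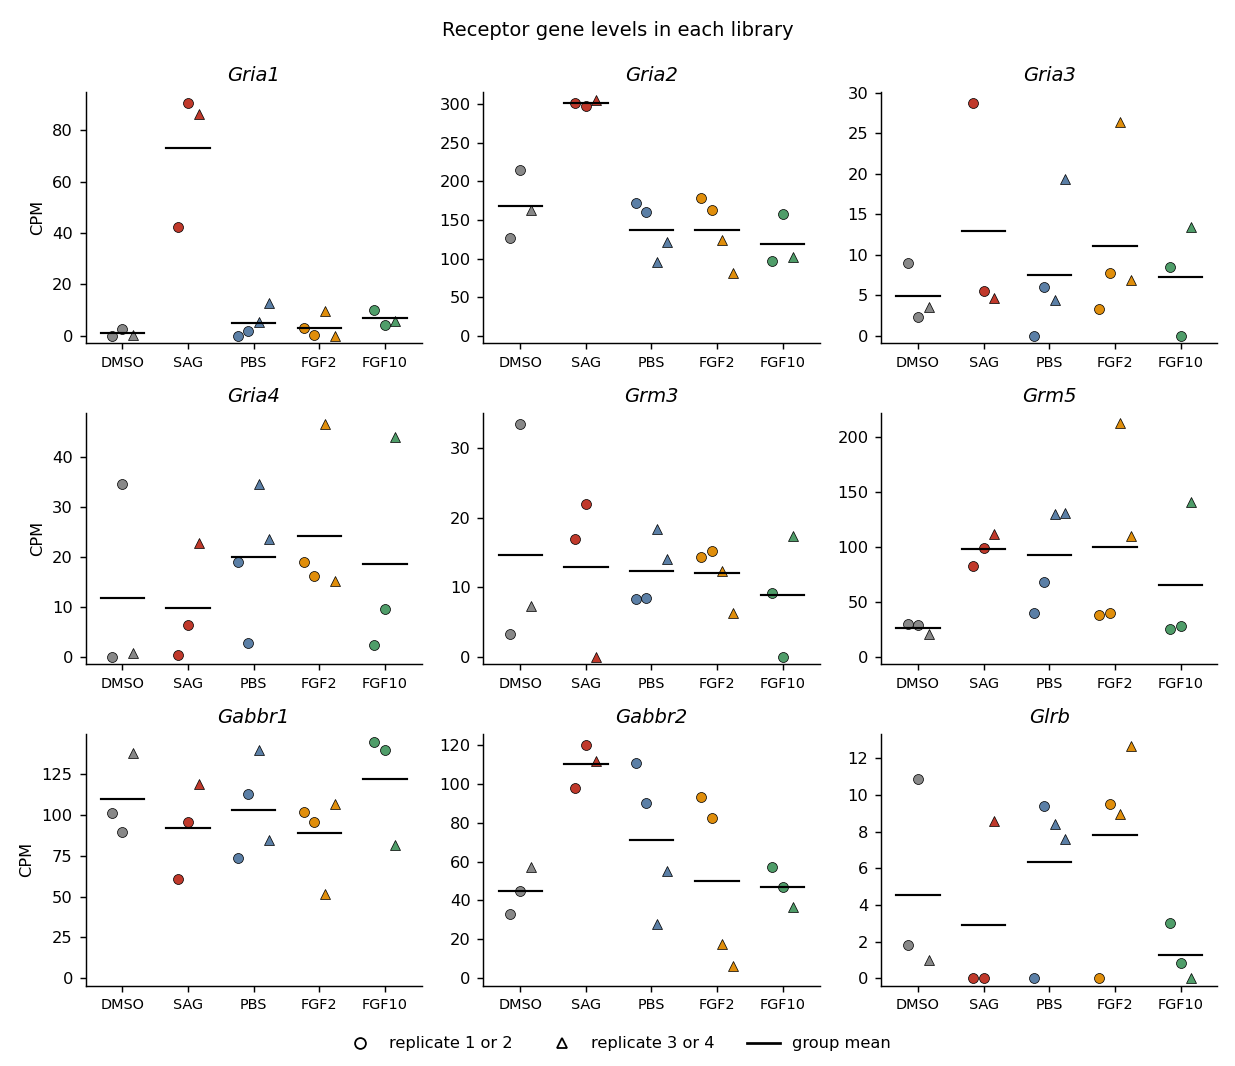
Level of each receptor gene in CPM (vertical axis, linear, a scale of its own for each gene) in the 17 libraries, by group (horizontal axis). Each point is a library, circles are replicates 1 and 2, triangles are replicates 3 and 4, and the line is the group mean. The 3 SAG libraries stand above all other libraries for *Gria1* (42.4 to 90.4 CPM) and *Gria2* (298 to 305 CPM).

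The first question was whether activation of the SHH pathway for 3 d altered the receptor transcripts. In the SAG cultures *Gria1*, *Gria2*, *Grm5* and *Gabbr2* were each higher in all 3 libraries than in any DMSO library, whereas the other 5 genes overlapped. None of the 9 genes passed an adjusted p of 0.05 in edgeR's quasi-likelihood test, in which 8 of 12538 genes (0.0638%) did. At an unadjusted p under 0.05 there were 4 of the 9 genes and 714 of all genes tested (5.69%). The count of 4 of 9 genes that were higher without overlap compares with 6.22% of all genes tested. DESeq2's Wald test called the same 4 genes, beside 3.18% of all the genes it tested. The median log2(fold-change) was 0.87 over the 9 genes and -0.02 over all genes tested. The 9 genes were chosen with earlier results of these data known, so these shares and medians are a description. In bulk RNA, more transcripts per cell and more cells of a type cannot be told apart, here and in all that follows.

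*Gria1*, an AMPA subunit gene on chromosome 11, was low in the DMSO cultures. It had 0, 122 and 17 counts in DMSO replicates 1, 2 and 3, or 0, 2.68 and 0.448 CPM. Under counting noise alone, 0 of 48492262 counts allows up to 0.0619 CPM. With SAG it had 1482, 6071 and 2677 counts, or 42.4, 90.4 and 86.1 CPM. The lowest SAG library was therefore well above the highest DMSO library, and above all the other 14 libraries, whose highest value was 12.8 CPM. The log2(fold-change) was 6.15 (SE 1.34, 95% CI 3.20 to 9.09), with an edgeR adjusted p of 0.261. Whether the gene was called depended on the fit. Over 6 other settings the log2(fold-change) was between 6.13 and 7.56 and the adjusted p between 2.8e-12 (edgeR without a filter on low counts) and 0.468 (edgeR on all 5 groups), and it was under 0.05 in 4 of them, DESeq2 included (0.0172). When single libraries were left out, the log2(fold-change) stayed between 5.56 and 8.40 and the edgeR adjusted p between 0.171 and 0.782. The two-sided exact permutation test gave p = 0.1 for *Gria1*, the smallest that 3 against 3 libraries allow, and the same value for *Gria2*, *Grm5* and *Gabbr2*.

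*Gria2* had the highest median CPM of the 9 genes. With DMSO it was at 127, 215 and 163 CPM in replicates 1, 2 and 3. With SAG it was at 302, 298 and 305 CPM in replicates 1, 2 and 3. The SAG libraries lay close together (302 ± 3.51 CPM, SD, n = 3) and above each of the other 14 libraries, which reached 215 CPM. The log2(fold-change) was 0.87 (SE 0.23, 95% CI 0.36 to 1.37, edgeR adjusted p = 0.425). Over the 6 other settings its adjusted p was between 0.0019 and 0.595 and was under 0.05 with DESeq2 alone. *Gria3* reached 28.7 CPM in SAG replicate 1, but the other SAG libraries, at 5.51 and 4.67 CPM, lay within the DMSO range of 2.35 to 8.95 CPM. Its log2(fold-change) of 1.41 (SE 1.62) rested on that library and was 0.06 without it. *Gria4* was at 0.40, 6.46 and 22.7 CPM with SAG and at 0, 34.5 and 0.87 CPM with DMSO, so that both groups spread over the same range.

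Of the metabotropic receptors, *Grm5* was higher with SAG and *Grm3* overlapped. *Grm5* was at 30.1, 28.8 and 20.8 CPM in DMSO replicates 1, 2 and 3 and at 82.4, 98.6 and 112 CPM in SAG replicates 1, 2 and 3. The groups did not overlap. The log2(fold-change) of *Grm5* was 1.90 (SE 0.35, 95% CI 1.14 to 2.67), and it had the smallest edgeR adjusted p of the 9 genes, 0.106. It ranked 20 by p among the 12538 genes tested. Over the 6 other settings its log2(fold-change) was between 1.88 and 1.92 and its adjusted p between 2.03e-06 and 0.454, under 0.05 in 4. Of the 14 other libraries, 5 lay above the lowest SAG library for *Grm5*, and these were replicates 3 and 4 of the FGF experiment. *Grm3* was at 17, 22.0 and 0 CPM with SAG and at 3.26, 33.4 and 7.31 CPM with DMSO (log2(fold-change) -0.15, SE 1.73).

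The GABAB subunits differed from each other. *Gabbr2*, the subunit that couples to G proteins, was at 33.2, 44.7 and 57.1 CPM in DMSO replicates 1, 2 and 3 and at 98.1, 120 and 112 CPM in SAG replicates 1, 2 and 3. The groups did not overlap, and of the other 14 libraries 1 (PBS replicate 1, at 111 CPM) lay above the lowest SAG library. Its log2(fold-change) was 1.31 (SE 0.32, 95% CI 0.61 to 2.01, edgeR adjusted p = 0.369), with adjusted p-values between 0.00223 (DESeq2) and 0.595 over 6 other settings and a value under 0.05 in 1. *Gabbr1*, the subunit that binds GABA, was at 101, 89.7 and 138 CPM with DMSO and at 60.8, 95.5 and 119 CPM with SAG. Its groups overlapped, and its log2(fold-change) of -0.24 had a 95% CI of -0.93 to 0.46. *Glrb* had 89, 499 and 37 counts with DMSO and 1, 1 and 267 counts with SAG, so 2 of the 3 SAG libraries were at the limit of detection.

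**Figure D2:**
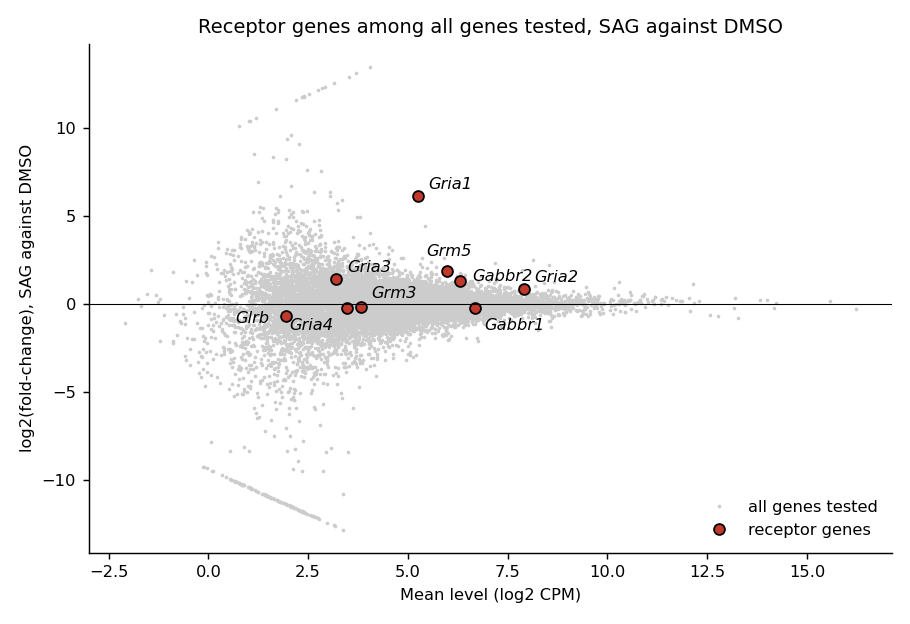
log2(fold-change) of SAG against DMSO (vertical axis) by mean level in log2 CPM (horizontal axis) for the 12538 genes tested (grey points) and the 9 receptor genes (red points, named). *Gria1* lies above the cloud at 6.15, *Grm5*, *Gabbr2* and *Gria2* lie along its upper edge at 1.90, 1.31 and 0.87, and the other 5 lie within it.

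Shares of the subunit counts were described for each library, without a test. *Gria2* held 84.4% to 97.1% of AMPA subunit counts in DMSO libraries and 72.9% to 80.9% in SAG libraries. *Gria1* held 0% to 1.05% with DMSO, and 11.3%, 22.6% and 20.6% in SAG replicates 1, 2 and 3. The shares of both subunits were separate between the groups, with that of *Gria1* higher and that of *Gria2* lower with SAG, although the level of *Gria2* itself was higher. The ratio of *Gabbr2* to *Gabbr1* counts was 0.328, 0.498 and 0.413 with DMSO and 1.61, 1.26 and 0.943 with SAG. *Gabbr1* thus had more counts than *Gabbr2* in the 3 DMSO libraries and in 1 of the 3 SAG libraries.

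**Figure D3:**
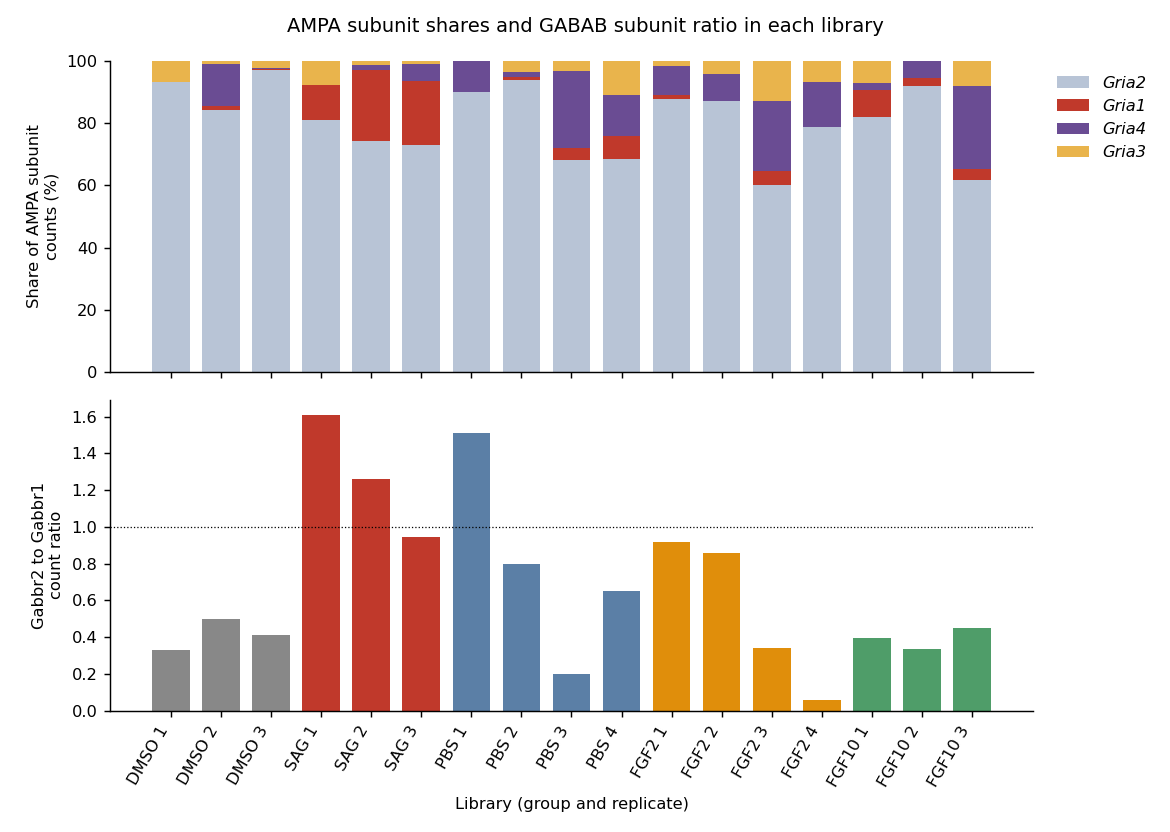
Upper panel, share of the counts of the 4 AMPA subunit genes held by each (vertical axis, percent, bars from 0 to 100) in each library; lower panel, ratio of *Gabbr2* to *Gabbr1* counts (vertical axis, bars from 0, dotted line at 1). *Gria1* holds 11.3% to 22.6% in the SAG libraries and at most 8.63% elsewhere, and the ratio is above 1 in SAG replicates 1 and 2 and in PBS replicate 1.

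Markers of other cells were measured beside these differences. Summed levels of 12 neuronal markers were 120 to 290 CPM with DMSO and 60.8 to 144 CPM with SAG, those of 12 oligodendrocyte lineage markers 573 to 703 CPM with DMSO and 495 to 584 CPM with SAG, and those of 5 ependymal markers 237 to 295 CPM with DMSO and 108 to 148 CPM with SAG. Those of 7 endothelial and mural markers were 22.3 to 24 CPM with DMSO and 0 to 13.8 CPM with SAG, and *Pecam1*, *Cdh5* and *Cldn5* were at 0 in both groups. The ependymal sums and the endothelial and mural sums were separate and lower with SAG, and the neuronal and oligodendrocyte lineage sums overlapped. In group means the endothelial and mural difference was mostly *Pdgfrb*, at 21.7 CPM with DMSO and 2.15 CPM with SAG. *Tek* was at 0.0366 and 0 CPM, whereas *Flt1* (1.11 and 2.92 CPM) and *Rgs5* (0.11 and 1.68 CPM) were higher with SAG. Single markers went either way in group means. *Cspg4*, of the oligodendrocyte lineage, was at 4.17 CPM with DMSO and 10.4 CPM with SAG, and *Gpr17* at 29.9 and 2.61 CPM. The astrocyte marker *Aldh1l1* was at 162 and 278 CPM, and *Gfap* at 174 and 40.4 CPM. Of the oligodendrocyte lineage markers, *Neu4* and *Mog* were at 0 in both groups. Astrocyte markers summed to 4390 to 4810 CPM with DMSO and 3970 to 4760 CPM with SAG. The part of changes in cell makeup in the receptor levels was not tested.

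The sequences upstream of the GABAB pair are shown because *Gabbr2* was separate between SAG and DMSO and its partner *Gabbr1* was not. They come from the promoter table of RefSeq (GRCm38.p6), in which 6 of the 9 genes had an entry, *Gria1*, *Gria3* and *Grm5* being the others. Each run reads 5ʹ to 3ʹ on the strand of the gene and stops before the outermost start annotated by RefSeq or GENCODE, at chr17:37045716-37045965 (plus strand, 250 bases) for *Gabbr1* and chr4:46991874-46991964 (minus strand, 91 bases) for *Gabbr2*. Capitals mark the GC box GGGCGG on either strand.
Gabbr1: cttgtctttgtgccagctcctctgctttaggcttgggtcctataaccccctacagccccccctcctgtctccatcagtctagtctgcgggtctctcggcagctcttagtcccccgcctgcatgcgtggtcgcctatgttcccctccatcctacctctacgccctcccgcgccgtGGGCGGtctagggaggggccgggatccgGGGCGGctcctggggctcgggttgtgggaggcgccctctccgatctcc
Gabbr2: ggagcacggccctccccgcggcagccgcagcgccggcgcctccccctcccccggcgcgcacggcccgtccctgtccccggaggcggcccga
The run of *Gabbr1* holds 2 GC boxes and that of *Gabbr2* none. In the whole windows of 250 bases before the RefSeq start there were 2 for each gene, and 32.7% of all 32851 such windows hold at least 1. The window of *Gabbr2* is 80.8% G or C, at the 99th percentile of all windows, and that of *Gabbr1* 66.0%. GLI factors are the transcription factors of the SHH pathway, so their consensus GACCACCCA and its core CCACCCA, which lies within the consensus, were searched on both strands. Neither was found in the windows of the 6 genes with an entry, and 0.225% and 8.11% of all windows hold them. The window of *Gria2* (chr3:80802836-80803085) lies within its annotated gene (chr3:80681450-80804227). The bases before its outermost start were therefore not searched. For *Grm3*, the bases after the window matched no GENCODE transcript of the gene. A match or its absence describes these letters only.

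The second experiment asked whether FGF2 or FGF10 for 7 d altered the receptors. The comparisons of FGF2 and of FGF10 with PBS share the 4 PBS libraries, so their values are given side by side and not as separate evidence. No member was called in FGF2 against PBS, FGF10 against PBS or FGF2 against FGF10, and edgeR called 0% of all genes tested in each of the 3. At an unadjusted p under 0.05 there were 223, 305 and 324 genes in these comparisons, or 1.75%, 2.29% and 2.4% of those tested. No member was among them. DESeq2 called no member, against 0.806%, 0.667% and 0.543% of all genes it tested. No member was separate between the groups, where 2.42%, 4.85% and 4.91% of all genes were. The median log2(fold-change) over the 9 genes was -0.01, -0.21 and 0.37 in these comparisons, and between 0 and 0.01 over all genes.

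*Gria2* was at 172, 161, 95.4 and 121 CPM in PBS replicates 1 to 4, at 179, 163, 124 and 81.6 CPM in FGF2 replicates 1 to 4, and at 96.4, 158 and 102 CPM in FGF10 replicates 1 to 3. Its groups lay on top of each other. The 95% CI of its log2(fold-change) was -0.62 to 0.60 for FGF2 and -0.81 to 0.40 for FGF10 against PBS. *Gabbr1* overlapped likewise, at 73.8 to 140 CPM with PBS, 51.4 to 107 CPM with FGF2 and 81.8 to 145 CPM with FGF10. Its 95% CI was -0.85 to 0.44 for FGF2 and -0.40 to 0.91 for FGF10.

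*Grm5* was at 39.8, 67.8, 130 and 131 CPM in PBS replicates 1 to 4, at 38.2, 39.8, 212 and 110 CPM in FGF2 replicates 1 to 4, and at 25.8, 28.4 and 141 CPM in FGF10 replicates 1 to 3. In all 3 groups, replicates 3 and 4 were higher than replicates 1 and 2, and the groups overlapped. The log2(fold-change) of *Grm5* for FGF2 was 0.11 (SE 0.52) over all libraries, -0.46 within replicates 1 and 2, and 0.29 within replicates 3 and 4. For FGF10 it was -0.50 (SE 0.58) over all libraries and -0.99 within replicates 1 and 2. Replicates 3 and 4 hold a single FGF10 library, so no value within them was computed.

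*Gabbr2* was at 111, 90.3, 28.0 and 55.3 CPM in PBS replicates 1 to 4, at 93.2, 82.3, 17.6 and 6.32 CPM in FGF2 replicates 1 to 4, and at 57.4, 46.7 and 36.7 CPM in FGF10 replicates 1 to 3. Here replicates 3 and 4 were the lower ones. Its log2(fold-change) for FGF2 was -0.52 (SE 0.67) over all libraries, -0.20 within replicates 1 and 2 and -1.82 within replicates 3 and 4, and the difference between these replicate sets missed the threshold (-1.63, SE 0.70, unadjusted p = 0.0345 and adjusted p = 0.906, edgeR interaction term). For FGF10 it was -0.60 (SE 0.43) over all libraries and -0.96 within replicates 1 and 2.

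The less abundant members did not separate either. *Gria4* ran from 2.82 to 34.5 CPM with PBS, from 15.2 to 46.4 CPM with FGF2 and from 2.47 to 43.9 CPM with FGF10. *Gria1* was between 0 and 12.8 CPM over the 11 libraries of the FGF experiment, and *Gria3* between 0 and 26.4 CPM. *Grm3* stayed between 0 and 18.4 CPM. *Glrb* had the lowest mean with FGF10 (1.28 ± 1.56 CPM, SD, n = 3) against 6.36 ± 4.30 CPM (SD, n = 4) with PBS, and its log2(fold-change) of -2.32 had a 95% CI of -8.04 to 3.40. For these 5 genes the 95% CI for FGF10 against PBS spanned at least 4 units on the log2 scale, so changes of several fold were not detectable.

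**Figure D4:**
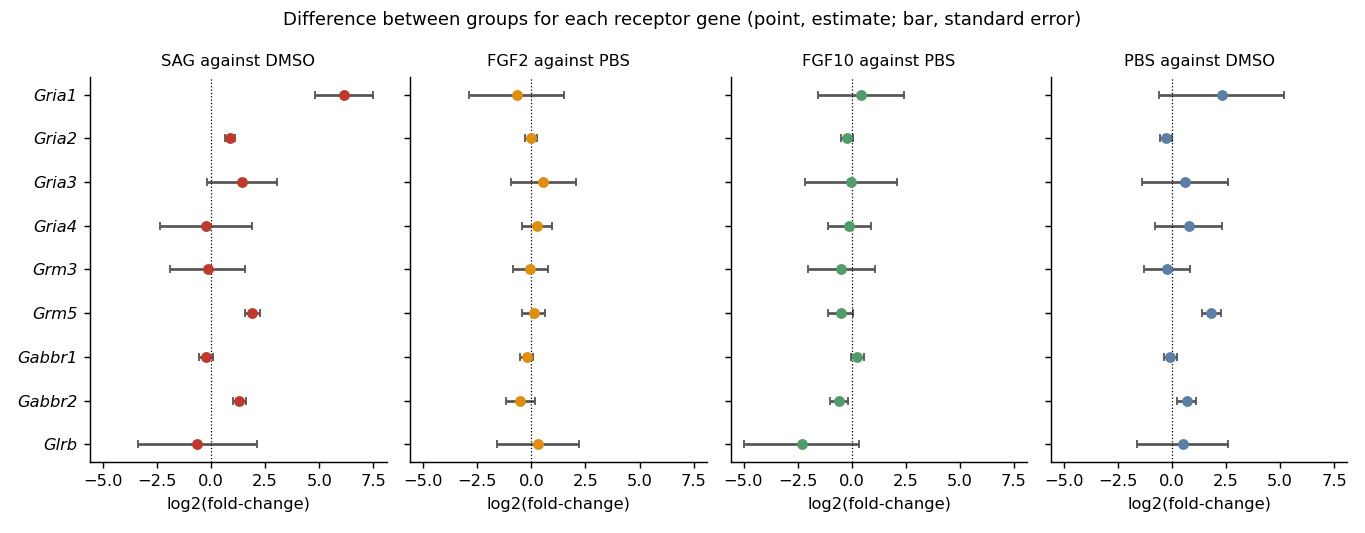
log2(fold-change) of each receptor gene (horizontal axis, the same scale in each panel) for SAG, for PBS (both against DMSO), and for FGF2 and FGF10 (both against PBS), with standard errors as bars. *Gria1*, *Gria2*, *Grm5* and *Gabbr2* stand to the right of 0 with SAG, and *Grm5* also in PBS against DMSO at 1.82.

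The solvent controls of both experiments were set side by side to give the level without agonist or added FGF, although solvent, days in culture (6 for DMSO, 9 for PBS) and experiment cannot be told apart. *Grm5* was higher with PBS, at 92.2 ± 45.7 CPM (SD, n = 4), than with DMSO, at 26.6 ± 5.04 CPM (SD, n = 3). PBS replicates 1 and 2 were at 39.8 and 67.8 CPM and replicates 3 and 4 at 130 and 131 CPM. The size of the difference therefore depends on the replicate set. The groups did not overlap, since the lowest PBS library was at 39.8 CPM and the highest DMSO library at 30.1 CPM. The log2(fold-change) was 1.82 (SE 0.43, 95% CI 0.89 to 2.74), and the two-sided exact permutation test gave p = 0.0571, the smallest that 4 against 3 allow. *Grm5* was not called by edgeR (adjusted p = 0.978), which called 0% of 13271 genes (580, or 4.37%, at an unadjusted p under 0.05). It was called by DESeq2 (adjusted p = 0.00127), which called 1.3% of its genes. Over 6 other settings the adjusted p of *Grm5* was between 0.00127 and 1. It was the only member of 9 to be higher without overlap, where 3.14% of all genes were. The other 8 genes overlapped between PBS and DMSO, among them *Gria2* (137 ± 35.5 and 168 ± 44.2 CPM, SD, n = 4 and 3) and *Gabbr1* (103 ± 29.8 and 110 ± 25.3 CPM, SD, n = 4 and 3). Oligodendrocyte lineage markers summed to 712 to 874 CPM with PBS and 573 to 703 CPM with DMSO, without overlap, and their part in the difference of *Grm5* was not tested.

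Within the FGF experiment the 5 libraries of replicates 3 and 4 differed from the 6 of replicates 1 and 2 across all 3 groups. The labels name no batch, and these sets were formed by replicate number with earlier results of these data known. With treatment as a covariate, edgeR called 2 of the 9 members and 3.7% of 15849 genes tested. DESeq2 called 4 members and 16.1% of the genes it tested. The called members were *Grm5*, higher in replicates 3 and 4, and *Gabbr2*, lower in them.

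*Grm5* ran from 25.8 to 67.8 CPM with a median of 39.0 CPM in replicates 1 and 2, and from 110 to 212 CPM with a median of 131 CPM in replicates 3 and 4. The sets were separate, and *Grm5* was the only member to be higher without overlap, where 2.3% of all genes were. Its log2 difference was 1.85 (SE 0.24, edgeR adjusted p = 2.07e-05), and it was called with each of the 11 libraries left out in turn (adjusted p from 3.37e-06 to 0.00112). *Gabbr2* ran from 46.7 to 111 CPM with a median of 86.3 CPM in replicates 1 and 2, and from 6.32 to 55.3 CPM with a median of 28.0 CPM in replicates 3 and 4. Its sets overlapped through PBS replicate 4 and FGF10 replicate 2. Its log2 difference was -1.63 (SE 0.37, edgeR adjusted p = 0.00919), and it was called in each of the 11 fits without a library (adjusted p from 0.00394 to 0.0393).

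Among the AMPA subunits, *Gria2* was at 96.4 to 179 CPM in replicates 1 and 2 and at 81.6 to 124 CPM in replicates 3 and 4 (log2 difference -0.59, SE 0.19, edgeR adjusted p = 0.108). *Gria4* was at 2.47 to 19.0 CPM in the first set and at 15.2 to 46.4 CPM in the other (log2 difference 1.59, SE 0.63, edgeR adjusted p = 0.23). Both were called by DESeq2, with adjusted p-values of 0.00868 for *Gria2* and 0.0419 for *Gria4*, against 0.0571 to 0.277 and 0.0838 to 0.627 in edgeR with single libraries left out. As a description, *Gria2* held 82.1% to 93.8% of AMPA subunit counts in replicates 1 and 2 and 60.1% to 78.7% in replicates 3 and 4, and *Gria4* 1.64% to 9.98% and 13.3% to 26.6%. These shares were separate between the sets. The other 5 members overlapped, with log2 differences between -0.21 (*Gabbr1*) and 1.93 (*Gria1*, SE 2.09).

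Marker sums moved with the sets as well. Astrocyte markers summed to 4910 to 5890 CPM in replicates 1 and 2 and to 3650 to 4210 CPM in replicates 3 and 4, neuronal markers to 198 to 304 CPM and 91.3 to 142 CPM, and ependymal markers to 352 to 617 CPM and 82.9 to 215 CPM, each without overlap. Oligodendrocyte lineage markers summed to 841 to 1050 CPM and 364 to 804 CPM, also without overlap. Endothelial and mural markers summed to 14.4 to 64.7 CPM and 0 to 9.36 CPM, again without overlap. In group means *Pdgfrb* made up most of that sum (27.7 CPM with PBS, 7.74 CPM with FGF2 and 22.1 CPM with FGF10). In the set in which these 5 sums were lower, *Grm5* was higher and *Gabbr2* was lower. The part of cell makeup in the differences of *Grm5* and *Gabbr2* was not tested.

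**Figure D5:**
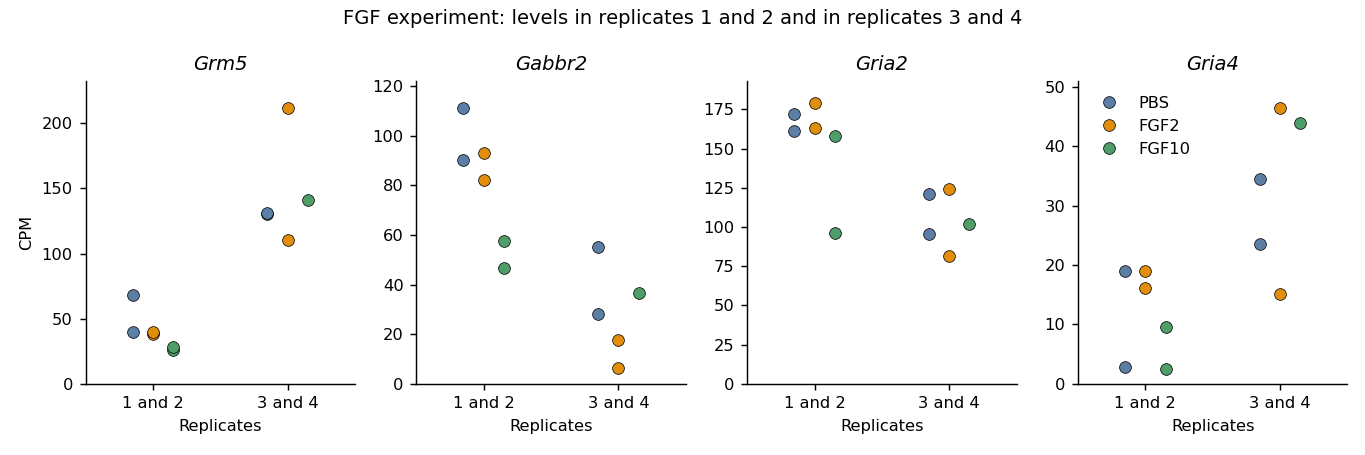
Levels in CPM (vertical axes, linear, from 0) of *Grm5*, *Gabbr2*, *Gria2* and *Gria4* in replicates 1 and 2 and in replicates 3 and 4 (horizontal axes) of the PBS, FGF2 and FGF10 groups, one point per library. *Grm5* is at 25.8 to 67.8 CPM on the left and 110 to 212 CPM on the right, and *Gabbr2* is at 46.7 to 111 CPM and 6.32 to 55.3 CPM.

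A further 66 genes of these receptor systems were listed: other glutamate, GABAA and GABAB related subunits, their auxiliary proteins and the glycine receptor scaffold. Between 33 and 40 of them passed the filter on low counts, according to the comparison. With SAG, 0 of 33 were called, and their median log2(fold-change) was -0.24, against -0.02 for all genes tested. None of the 33 was higher without overlap, and 4 were lower, where 7.89% of all genes were. Among the 2 with the smallest p was the GABAA receptor subunit *Gabrb1* (42.8 CPM with SAG and 102.6 CPM with DMSO, log2(fold-change) -1.26, SE 0.35, edgeR adjusted p = 0.425). Of the 6 GABAA subunits tested, 3 were lower without overlap, and the 3 NMDA subunits tested overlapped between the groups, with log2(fold-change) values of -4.52 to -0.31 whose SE was 2.13 to 3.32 (edgeR adjusted p = 1 for each).

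In the comparisons of the FGF experiment none of the other listed genes was called. The 2 of smallest p for FGF2 against PBS were *Gphn*, which encodes gephyrin (28.6 and 51.0 CPM, log2(fold-change) -0.83, SE 0.50), and *Cacng7*, an AMPA receptor auxiliary subunit (53.0 and 35.4 CPM, 0.58, SE 0.35). For FGF10 against PBS they included *Cacng7* (70.8 and 35.8 CPM, 0.98, SE 0.37, unadjusted p = 0.019 and edgeR adjusted p = 1). For FGF2 against FGF10 they were the AMPA auxiliary genes *Gsg1l* (2.26 and 0 CPM) and *Shisa9* (1.44 and 14.1 CPM). For PBS against DMSO they included *Cacng7* (36.1 and 58.9 CPM, -0.71, SE 0.38), and none of 34 was called.

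Between the replicate sets, 1 of 40 other genes was called, *Gabrb1*, which was at 165.2 CPM in replicates 1 and 2 and at 34.8 CPM in replicates 3 and 4 (log2 difference -2.30, SE 0.26, edgeR adjusted p = 1.61e-06). Its libraries did not overlap, where 2.11% of all genes were lower without overlap. The next by p was the kainate receptor *Grik3* (30.1 and 5.84 CPM in replicates 1 and 2 and in replicates 3 and 4, -2.12, SE 0.66, edgeR adjusted p = 0.0809). The median over the 40 genes was -0.22, against -0.04 for all genes tested and 0.65 for the 9 members.

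Likeness of patterns was measured by Pearson's r of log2 CPM over the 17 libraries, among 17299 genes with a mean count of 10 or more. It is a description, since libraries share groups, replicate sets and depth. Each nearest gene was picked as the highest of many r values, and libraries without counts share the same low value. A high r is therefore no evidence of a link between genes. The gene most like *Gria2* was *Sparcl1*, an abundant matricellular gene of astrocytes (r = 0.922), and the one most like *Grm5* was *Ckb*, the brain creatine kinase (r = 0.907). *Chic1* was nearest to *Gabbr2* (r = 0.883), *Stx4a* to *Gria1* (r = 0.847), *Med26* to *Gria3* (r = 0.926), *Qrsl1* to *Gria4* (r = 0.887), *Dcbld1* to *Grm3* (r = 0.912), *Smad6* to *Glrb* (r = 0.862) and *Xrcc4* to *Gabbr1* (r = 0.77). Within the 9 genes the highest r was between *Gria2* and *Gabbr2* (0.737, and 0.802 after the group means were removed). *Gabbr2* and *Grm5* ran against each other within groups (r = -0.694), while *Gabbr1* and *Gabbr2*, the partners of the heterodimer, had an r of 0.019.

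The genes lie apart in the genome except for one pair. By the RefSeq annotation of GRCm38.p6, *Gria2* (chr3:80681450-80804227) and *Glrb* (chr3:80843598-80913660) are on the same stretch of chromosome 3. *Gria1* is at chr11:57011571-57330244, *Grm5* at chr7:87583981-88135063, *Gabbr2* at chr4:46662318-46991714 and *Gabbr1* at chr17:37045966-37074305. *Gria3* is at chrX:41400819-41678601, *Gria4* at chr9:4417893-4796234 and *Grm3* at chr5:9485236-9725352. Reads of this assay fall at the 3ʹ ends of these genes and do not tell isoforms or edited transcripts apart.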

How the data were processed

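The 17 libraries were grouped by the treatment in their labels. The authors made 3ʹ-end libraries from poly(A) RNA with BC1 transcripts removed, aligned and counted the reads with STAR, and deposited read counts per gene without normalization. The submitters' processing notes name GRCm38. The annotation, the strand setting and the use of molecular identifiers are not given in the sources used here, so PCR copies could be counted. Columns named for SHH were read as the SAG libraries. All 56805 rows held whole numbers. The 114 spike-in rows (at most 86 counts per library) were left out. Libraries of a group differed beyond counting noise, with a chi-square per degree of freedom of 149 to 524 over 21 pairs. In R 4.3.3 with edgeR 4.0.16, each comparison was fitted on its own libraries (filterByExpr with a minimum count of 10 and total of 15, TMM, quasi-likelihood F-test), p-values were adjusted by Benjamini-Hochberg over all genes tested, and genes were called at an adjusted p under 0.05. Levels in CPM were normalized over all 17 libraries, and those of the other listed genes within each comparison. Alternatives were DESeq2 1.42.0 (size factors, Wald test), other filters, all 5 groups in a fit, replicate number or set as a term, the paper's threshold, and each library left out in turn. The fit was tested on simulated counts that varied less between libraries than these data (common biological coefficient of variation 107% to 131%). That test therefore does not tell its power or error rate here. Every member is named, and of the 66 other genes those called or, where fewer than 2 were, the 2 of smallest p. Members and lists were chosen with earlier results of these data known. Values of some of the other listed receptor genes are not reported here.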

Additional observations from a re-analysis of the deposited data

Results flagged for a closer look

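*Gria4* in FGF2 replicate 3 stood apart from its group. It was at 46.4 CPM, while the other 3 FGF2 libraries were at 15.2 to 19.0 CPM, and the gap was 0.878 of the group's range, above the 95% limit of Dixon's test for 4 libraries. The level was close to that of FGF10 replicate 3 (43.9 CPM). Groups of 4 libraries were examined 18 times for the 9 genes, 1 was marked, and chance marks about 1 in 20. Without FGF2 replicate 3 the log2(fold-change) of *Gria4* for FGF2 against PBS was -0.26, where all libraries gave 0.26.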

How the results depend on the processing

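The number of the 9 genes called with SAG was 0 and became 2 without a filter on low counts, 2 where a mean count of 10 was required, 2 with the replicate block and 4 with DESeq2's Wald test. For PBS against DMSO it was 0 and became 1 without a filter and 1 with DESeq2. Between the replicate sets it was 2 and became 4 with DESeq2. With single libraries left out these counts stayed at 0, 0 and 2. For the FGF comparisons the count was 0 under every alternative run. Deviations of libraries with the same replicate number correlated at -0.014 to 0.026 for SAG and DMSO, 0.091 to 0.109 for FGF2 and PBS, 0.027 to 0.114 for FGF10 and PBS, 0.048 to 0.188 for FGF2 and FGF10, and -0.019 to 0.007 for PBS and DMSO. In none of these comparisons was every pair over 0.1, so the libraries were not treated as paired, although those of the FGF experiment differed between replicates 1 and 2 and replicates 3 and 4. Under the replicate block, log2(fold-change) values changed sign for *Gria4* with SAG (3.55), *Grm5* with FGF2 (-0.093), *Gria3* with FGF10 (1.54), and *Gria3* (-0.76), *Grm3* (0.36) and *Glrb* (-0.57) for PBS against DMSO. With the replicate set as a term they did so for *Grm5* with FGF2 (-0.085), *Gria3* with FGF10 (0.35) and *Gabbr2* for FGF2 against FGF10 (-0.26). Within replicates 1 and 2 they did so with FGF2 for *Gria1* (0.80), *Gria2* (0.044), *Grm3* (0.81), *Grm5* (-0.46) and *Gabbr1* (0.082), and with FGF10 for *Gria3* (0.48). None of these was called in either fit, and the cause was not tested.

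With single libraries left out, the sign of these values also turned. The ranges with SAG were -1.77 to 4.52 for *Gria4*, -0.76 to 1.32 for *Grm3* and -7.56 to 1.06 for *Glrb*. For FGF2 against PBS they were -2.28 to 0.38 for *Gria1*, -0.16 to 0.17 for *Gria2*, -0.32 to 1.66 for *Gria3*, -0.26 to 0.66 for *Gria4*, -0.19 to 0.22 for *Grm3*, -0.56 to 0.39 for *Grm5* and -0.12 to 0.71 for *Glrb*. For FGF10 against PBS they were -0.001 to 1.47 for *Gria1*, -0.82 to 1.04 for *Gria3*, -1.74 to 0.40 for *Gria4* and -1.42 to 0.094 for *Grm3*. For FGF2 against FGF10 they were -0.28 to 1.40 for *Gria3*, -0.16 to 2.00 for *Gria4*, -0.15 to 1.39 for *Grm3*, -0.054 to 1.88 for *Grm5* and -0.41 to 0.45 for *Gabbr2*. For PBS against DMSO they were -0.48 to 1.35 for *Gria3*, -0.71 to 1.24 for *Grm3* and -0.26 to 0.12 for *Gabbr1*, and between the replicate sets -0.37 to 1.195 for *Glrb*. *Glrb* had at most 3 counts in 5 of 17 libraries, whose totals were 33099020 to 68342287. It had 167 counts in the library of lowest total (17481727). The part of depth in its low counts was not tested.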
